A study of Mus musculus with 384 samples.

Results

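The genes described here were the 3 R-spondin receptors Lgr4, Lgr5 and Lgr6, the 4 R-spondin ligands Rspo1, Rspo2, Rspo3 and Rspo4, and the ubiquitin ligases Znrf3 and Rnf43. They were listed by name, with no threshold on a measured value but with earlier results of these data known, and made up 9 of the 23422 genes in the count table. The RNA came from single mesenchymal cells of adult mouse lung, sorted into plates and sequenced as full-length SmartSeq2 libraries, in 380 single-cell wells (95 from each of 4 mice) and 4 wells that held a pool of cells. After quality control the authors kept 29 cells from Lgr5 mouse 1, 28 from Lgr5 mouse 2, 50 from Lgr6 mouse 1 and 75 from Lgr6 mouse 2, and values by mouse follow this order throughout. The mouse was taken as the replicate, with 2 mice per line. Mice were mostly 7 to 10 weeks old, and both lines carried a knock-in allele with the tamoxifen-activated recombinase CreERT2. Lgr5 mice paired Lgr5-IRES-CreERT2 with the TdTomato reporter Rosa26-lox-stop-lox-TdTomato, so that a cell kept its red label after Lgr5 itself had ceased. Lgr6 mice carried Lgr6-EGFP-IRES-CreERT2, in which green fluorescence follows the Lgr6 locus. The paper's legend describes the sequenced Lgr5 mice as induced, which in this line was done with tamoxifen. It names no induction for the sequenced Lgr6 mice. Cells that bore CD31, CD45, CD11b or TER119 were excluded from the sort.

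R-spondins are secreted proteins that raise the response of a cell to Wnt. The ligases ZNRF3 and RNF43 sit in the membrane and remove Frizzled, the Wnt receptor, from the cell surface, and their genes are themselves induced by Wnt signalling. An R-spondin holds a ligase and an LGR receptor together, the pair is cleared from the membrane, and Frizzled accumulates. A cell that can answer an R-spondin in this way therefore needs a ligase as well as a receptor, and in many organs the ligand comes from neighbouring mesenchymal cells. Lgr5 and Lgr6 are known as stem cell markers in gut and skin, whereas Lgr4 is expressed more broadly.

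Reads of 38 bases were assigned to transcripts through matching words of 31 bases, so the sequences that relatives share were examined first. Among the coding sequences of GENCODE (mm10), the longest stretch that any pair of receptors held in common was shorter than 31 bases, as was that of the ligases, and a read from the coding part of one could not be assigned whole to the other. The Lgr4 and Lgr5 stretch of 15 bases lay in coding exons at chr2:110008110-110008124 (plus strand) and chr10:115456754-115456768 (minus strand). The Lgr4 and Lgr6 stretch of 17 bases lay at chr2:109996697-109996713 (plus) and chr1:135027108-135027124 (minus). The Lgr5 and Lgr6 stretch of 18 bases lay at chr10:115520659-115520676 and chr1:135075280-135075297, both minus. The Znrf3 and Rnf43 stretch of 20 bases lay at chr11:5281755-5281774 (minus) and chr11:87731557-87731576 (plus). They are printed 5′ to 3′ on the coding strand to show how far each pair matches, with no base singled out.
Lgr4 and Lgr5: cagtgttgtgcattt
Lgr4 and Lgr6: tgaccttggctctcaac
Lgr5 and Lgr6: gacctcagtatgaacaac
Znrf3 and Rnf43: tccaccttccgaagctccct
Rspo3 was the one member with coding words found elsewhere in the transcriptome. Of its 837 coding words 67 were also in the transcript Gm48159, and over the whole transcript this share was 12.2%. In the other 8 members no coding word was found in another gene. Over whole transcripts, words shared with other genes made up 1.84% for Lgr5, 0.777% for Lgr6, 0.556% for Rspo1 and 0.343% for Znrf3. Few as they were, these words lay in 1930 other genes for Lgr5, 91 for Lgr6, 2709 for Rspo1 and 2964 for Znrf3. For Lgr4, Rspo2, Rspo4 and Rnf43 the share was 0%. Rspo1 and Znrf3 each shared such words with 2 other members. The part of these words in the counts was not tested.

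The members lie on several chromosomes (mm10, GENCODE). Lgr4 is at chr2:109917647-110014257 (plus strand), Lgr5 at chr10:115450311-115587780 (minus) and Lgr6 at chr1:134983301-135105276 (minus). Rspo1 is at chr4:124986430-125009099 (plus), Rspo2 at chr15:43020794-43170826 (minus), Rspo3 at chr10:29452416-29535867 (minus) and Rspo4 at chr2:151842927-151874668 (plus). Both ligase genes are on chromosome 11, Znrf3 at chr11:5276324-5444847 (minus) and Rnf43 at chr11:87662722-87735539 (plus). All 9 are annotated as protein coding.

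Several properties of the cells differed between the lines and bear on every comparison below. Total counts per kept cell ran from 9748 to 4538878, with medians by mouse of 263129, 272729, 332588 and 1537593. Any of 5 mesenchymal markers (Col1a1, Col1a2, Col3a1, Vim, Pdgfrb) exceeded 1 TPM (transcript abundance scaled for length and depth) in 28 of 29, 27 of 28, 47 of 50 and 70 of 75 cells. The summed level of 8 airway smooth muscle markers had means of 2744 and 1033 TPM in the Lgr5 mice against 13794 and 13424 TPM in the Lgr6 mice. At least 3 of 8 epithelial markers exceeded 1 TPM in 23 of 29, 16 of 28, 4 of 50 and 7 of 75 cells, a limit chosen after the values were seen. The summed level of these 8 markers had means of 24886.5, 29658.5, 20176.6 and 17197.1 TPM, which were closer between the lines. Its medians over cells were 180.5, 99.1, 3.16 and 2.79 TPM. The 6 immune markers were above 1 TPM for any of them in 24, 14, 22 and 34 cells, and the 6 endothelial ones in 2, 6, 4 and 2 cells. These lists include Ptprc and Pecam1, which the authors required to be below 1 TPM in a kept cell. Transcripts of tdTomato, which the authors required of a kept cell, were counted in every kept cell of both lines. Their median was 2588 and 2178 TPM in the Lgr5 mice and 2486 and 2476 TPM in the Lgr6 mice, although the labels of the Lgr6 line name EGFP alone. The embryonic globin Hbb-bh1, singled out after its values were seen, had a count in 29 of 29, 26 of 28, 1 of 50 and 0 of 75 cells. The part of these differences in the results was not tested.

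Lgr5, Lgr6 and Znrf3 had the highest mean levels over the 4 mice. Levels of different genes are compared in TPM, which is per length, as the mean over the kept cells of each mouse and then over the 4 mice. Lgr5 stood highest at 130.5 ± 135.2 TPM (SD, n = 4 mice), followed by Lgr6 at 25.7 ± 6.61 TPM and Znrf3 at 22.8 ± 4.71 TPM. Lgr4 reached 4.69 ± 1.90 TPM and Rspo1 2.69 ± 2.06 TPM. The remaining members averaged 1.45 ± 2.91 TPM for Rspo3, 0.833 ± 1.67 TPM for Rspo4, 0.525 ± 0.606 TPM for Rnf43 and 0.136 ± 0.169 TPM for Rspo2. Lgr6 and Znrf3 overlapped in their ranges over mice, as did Lgr4 and Rspo1, and the last 4 all overlapped one another. The order was not the same in each mouse. Lgr5 had 303 and 170.4 TPM in the Lgr5 mice but 5.39 and 42.9 TPM in the Lgr6 mice, and in Lgr6 mouse 1 it stood below Lgr6, Znrf3, Lgr4 (6.29 TPM) and Rspo3 (5.81 TPM, in 1 cell).

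**Figure D1:**
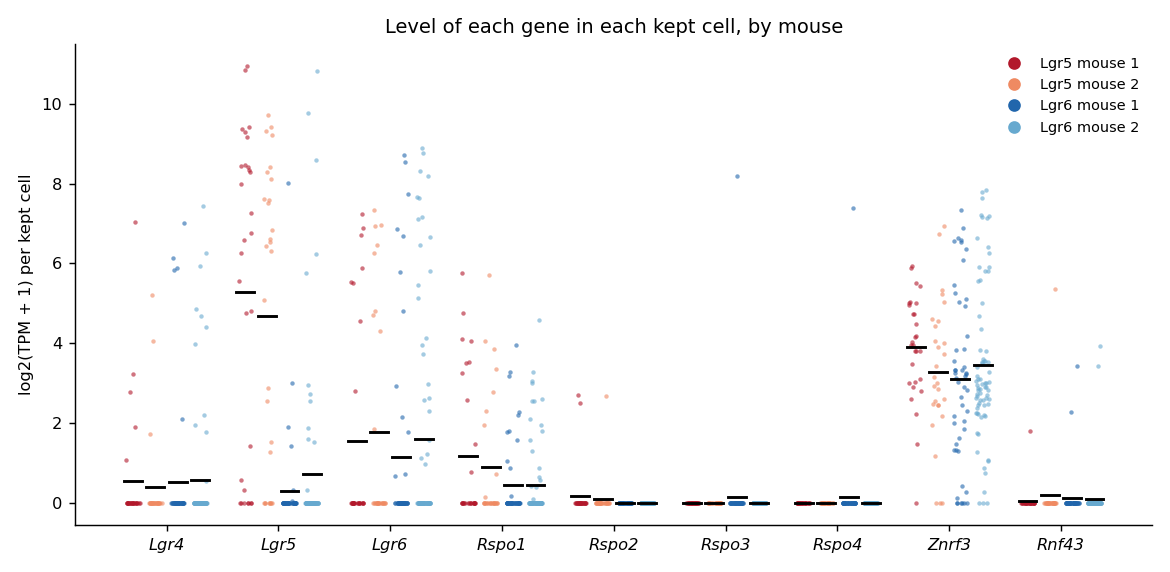
Level of the 9 genes as log2(TPM + 1) in each kept cell, by mouse, with a black bar at the mean over the cells of a mouse. Lgr4 and Lgr6 were at 0 in most cells and high in a minority, Lgr5 was so in the Lgr6 mice and above 50 TPM in 55.2% and 53.6% of cells of the Lgr5 mice, whereas Znrf3 was spread around a mean between 3.12 and 3.90 in the 4 mice.

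Lgr4, the broadly expressed receptor, was found in few of these cells, with shares that overlapped between the lines. It had a count in 5 of 29, 4 of 28, 6 of 50 and 11 of 75 cells. These are shares of 17.2% (exact 95% interval 5.85 to 35.8), 14.3% (4.03 to 32.7), 12% (4.53 to 24.3) and 14.7% (7.56 to 24.7). The lines averaged 15.8% ± 2.09 and 13.3% ± 1.89 (SD, n = 2 mice each), a difference of 2.43 percentage points with a two-sided exact permutation p of 0.667. With 2 mice against 2 the smallest p that this test can give is 0.333. The mean level was 5.13 and 1.94 TPM in the Lgr5 mice and 6.29 and 5.41 TPM in the Lgr6 mice, and in each mouse a few cells supplied it. A single cell held 86.9%, 69.2%, 56.7% and 37.2% of the Lgr4 counts of its mouse.

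Lgr5 counts were present in 23 of 29, 21 of 28, 11 of 50 and 28 of 75 cells. The shares were 79.3% and 75% in the line named for it against 22% and 37.3%, with no overlap. The difference of the line means was 47.5 percentage points, and the two-sided exact permutation p was 0.333, the smallest possible. The Lgr5 line was sorted on a label made through the Lgr5 locus, so the groups were formed by this gene. In the Lgr6 line most of these detections were marginal. Of the 39 detected cells there, 21 had Lgr5 counts that the authors' table lists at a TPM of 0, against 2 of 44 in the Lgr5 line. Above 1 TPM, Lgr5 was present in 20 of 29, 20 of 28, 4 of 50 and 11 of 75 cells. The Lgr5 counts of the Lgr6 mice lay almost entirely in a few cells, since 1 cell held 96.7% of them in mouse 1 and 58.4% in mouse 2.

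Lgr6 was found in shares that overlapped between the lines. It was counted in 8 of 29, 9 of 28, 13 of 50 and 26 of 75 cells, or 27.6%, 32.1%, 26% and 34.7%. The mean share was 29.9% ± 3.22 in the Lgr5 line and 30.3% ± 6.13 in the Lgr6 line (SD, n = 2 each), and the exact permutation p for the difference was 1. Thinning every cell to 99000 counts left the shares at 25%, 28%, 21.6% and 27.4%. The mean level was 18.95 and 22.97 TPM against 26.3 and 34.5 TPM, so both Lgr6 mice stood above both Lgr5 mice in mean TPM while the shares of cells overlapped. On the mean of log2(TPM + 1) per cell the mice overlapped, at 1.56 and 1.77 against 1.15 and 1.61.

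Most receptor counts lay in a part of the cells with a count. Above a limit of 50 TPM, chosen after the values were seen, were 37 of the 83 cells with Lgr5 (16, 15, 1 and 5 by mouse), 26 of the 56 with Lgr6 (4, 5, 6 and 11) and 8 of the 26 with Lgr4 (1, 0, 4 and 3). These cells carried 99.3% of all Lgr5 counts, 93.1% of Lgr6 counts and 70.9% of Lgr4 counts. At least 6 of the 8 airway smooth muscle markers were above 1 TPM in 17 of the 26 Lgr6 cells, 5 of the 8 Lgr4 cells and 4 of the 37 Lgr5 cells. Cells with many smooth muscle markers were themselves mostly from the Lgr6 mice, so these counts are a description over cells.

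Receptor combinations differed between the lines mainly through Lgr5. Among all kept cells 58 had no count of any receptor, 86 had 1, 35 had a pair and 3 had all of them. The most frequent state was Lgr5 alone (51 cells), then Lgr6 alone (26), Lgr5 with Lgr6 (21), Lgr4 alone (9), Lgr4 with Lgr5 (8) and Lgr4 with Lgr6 (6). No receptor was found in 3 of 29, 4 of 28, 28 of 50 and 23 of 75 cells. Above 1 TPM 82 cells had none.

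**Figure D2:**
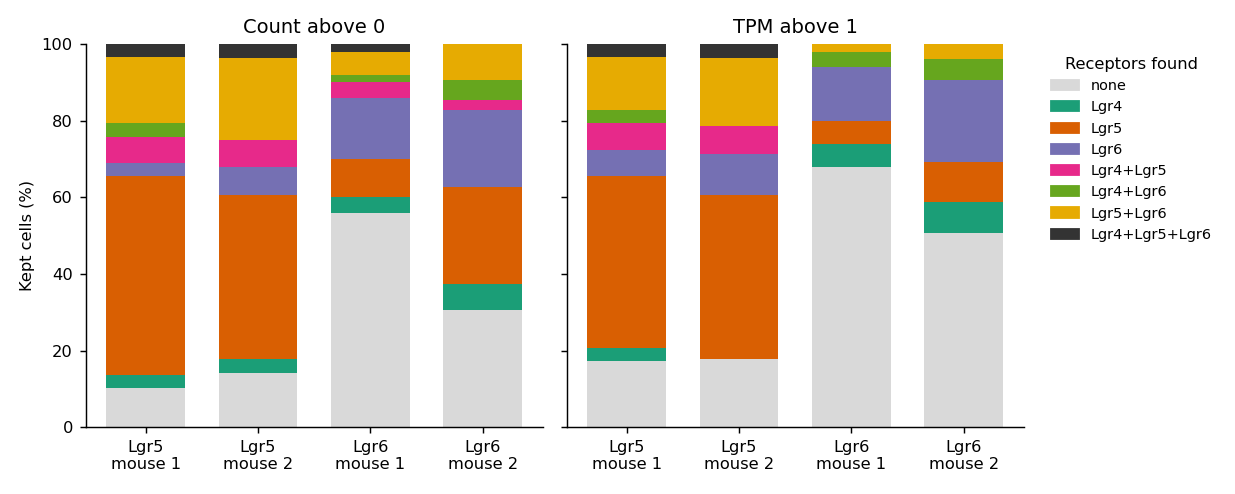
Share of the kept cells of each mouse (percent) with each combination of Lgr4, Lgr5 and Lgr6, by a count above 0 and by TPM above 1. Cells without a receptor made up 10.3%, 14.3%, 56% and 30.7% of the 4 mice, in the order drawn, by counts.

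By a count above 0, pairs of receptors met in the same cell about as often as their separate shares within each mouse would give. Under stricter rules the Lgr4 and Lgr6 pair met more often than that, in few cells. Lgr5 and Lgr6 were counted together in 24 cells, beside 25.7 from the product of the shares, and Lgr4 and Lgr5 in 11 cells beside 12.4. Lgr4 and Lgr6 met in 9 cells beside 8.04. Above 1 TPM the Lgr4 and Lgr6 pair was again found in 9 cells, beside 6.41. After thinning it was found in 8 cells beside 4.21, and above 50 TPM in 3 cells beside 1.06. Cells of a mouse are not replicates, so these counts carry no test. Lgr4 and Lgr6 levels had within-mouse Pearson correlations over cells of 0.30, -0.08, 0.27 and 0.12 (29, 28, 50 and 75 cells that share a library preparation), which are weak and differ in sign.

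Among the ligands, Rspo1 was the only one found in more than a few cells, and it was found at low level. It had a count in 10 of 29, 10 of 28, 12 of 50 and 23 of 75 cells, or 34.5%, 35.7%, 24% and 30.7%. The mean shares were 35.1% ± 0.871 and 27.3% ± 4.71 (SD, n = 2 each). They did not overlap, and the exact permutation p for the difference of 7.77 percentage points was 0.333. The 55 cells held 21, 18, 17 and 67 counts by mouse, 26 of the cells had a single count, and none had more than 10. Its mean level was 5.11 and 3.704 TPM in the Lgr5 mice and 0.957 and 1.01 TPM in the Lgr6 mice. After thinning to 99000 counts Rspo1 remained in 17.9%, 12%, 10.8% and 5.48% of cells, and with a minimum of 5 counts in 0%, 3.57%, 0% and 5.33%.

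Rspo2, the R-spondin most often studied in lung development, was counted in 3 cells, all from the Lgr5 line, with 2, 1 and 1 counts. That is 2 of 29 and 1 of 28 cells. In the Lgr6 mice 0 of 50 and 0 of 75 cells had a count, which allows shares of up to 6% and 4%. All 3 cells with Rspo2 also had counts of Lgr4 (1, 1 and 4) and of Lgr5, whereas Lgr4 was counted in 26 kept cells in all. In these cells 4, 6 and 6 of the 8 airway smooth muscle markers were above 1 TPM, and 3, 2 and 7 of the 8 epithelial markers.

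Rspo3 and Rspo4 were each found in 1 cell of Lgr6 mouse 1, and there at high level. The Rspo3 cell had 194 counts and 290.6 TPM, together with 83 counts of Lgr4, 92 of Lgr6 and many of Znrf3, and all 8 airway smooth muscle markers. The Rspo4 cell had 699 counts and 166.5 TPM, with 6 of 8 alveolar fibroblast markers and 1 of 8 smooth muscle markers. It held 8 counts of Lgr4 and 2 of Lgr5. In the other 3 mice a count of 0 allows shares of up to 10.3%, 10.7% and 4% of cells for either gene. One cell is no measure of a line, and no fold between lines is given for these genes.

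Most cells with a ligand count also had a receptor count, but receptor counts were common among all kept cells. A count of any R-spondin was present in 58 kept cells, and 46 of these also had a count of at least 1 receptor. Among all kept cells a receptor was counted in 26 of 29, 24 of 28, 22 of 50 and 52 of 75. All 46 had a count of a ligase, but Znrf3 alone was counted in nearly every kept cell. Whether any ligand met any receptor more often than their separate shares would give was not tested. By mouse, 10 of 11, 11 of 11, 8 of 13 and 17 of 23 ligand-positive cells had a receptor. Rspo1 was counted with Lgr5 in 28 cells, beside 26.7 from the product of the shares, with Lgr6 in 22 beside 17.1, and with Lgr4 in 11 beside 7.97. Above 1 TPM Rspo1 and Lgr6 met in 10 cells beside 10.2, and after thinning Rspo1 and Lgr4 met in 0 cells beside 1.55.

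Znrf3, a ligase that acts against Wnt receptors, was present in nearly every cell of both lines. It was counted in 29 of 29, 26 of 28, 45 of 50 and 75 of 75 cells. The mean shares were 96.4% ± 5.05 and 95% ± 7.07 (SD, n = 2 each) and the exact permutation p for the difference was 1. Thinning left 96.4%, 84%, 86.5% and 82.2%. Its level was 19.8 and 18.8 TPM in the Lgr5 mice and 23.4 and 29.2 TPM in the Lgr6 mice, and the top cell held at most 22.6% of the counts of a mouse. Above 50 TPM, the limit used for the receptors, were 2 of 29, 2 of 28, 8 of 50 and 14 of 75 cells. Of these 26 cells 13 had at least 6 of the 8 airway smooth muscle markers. The median number of these markers by mouse was 4, 4.5, 6.5 and 4, beside 4, 3, 5.5 and 6 in the other cells. Znrf3 counts rose with the total counts of a cell, with Pearson correlations over the cells of a mouse of 0.31, 0.56, 0.56 and 0.33 (29, 28, 50 and 75 cells).

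**Figure D3:**
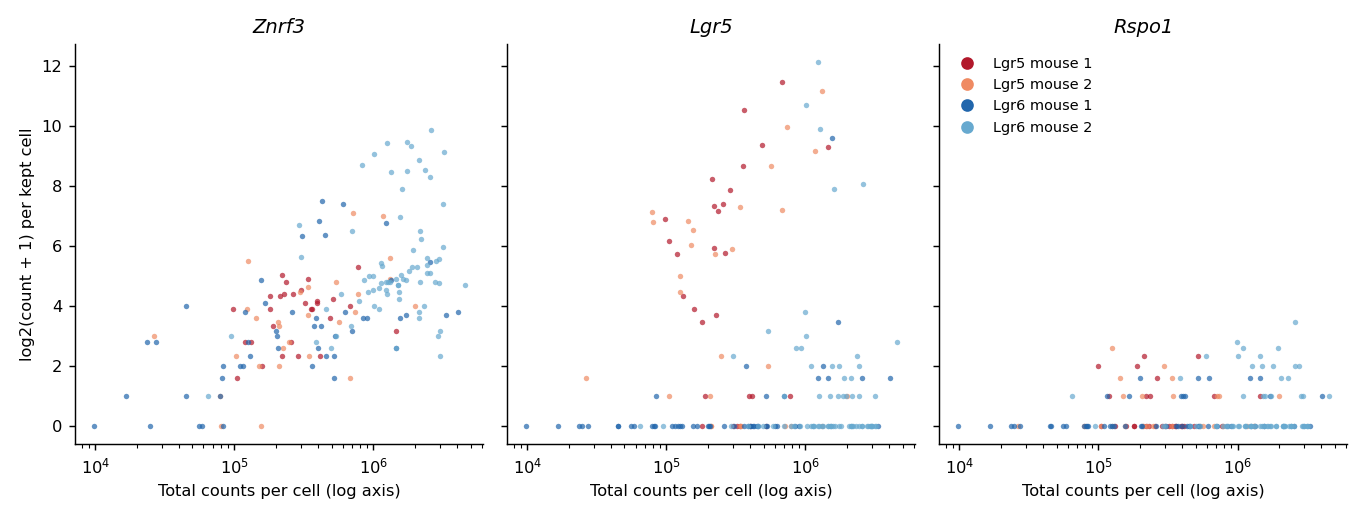
Counts of Znrf3, Lgr5 and Rspo1 per kept cell, as log2(count + 1), against the total counts of that cell on a log axis, coloured by mouse. Znrf3 climbed with the total in all mice, Lgr5 was either at 0 to a few counts or far above them, and Rspo1 stayed at 10 counts or fewer.

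Rnf43, the relative of Znrf3 and best known from gut epithelium, was by contrast nearly absent, with counts in 2 of 29, 1 of 28, 2 of 50 and 3 of 75 cells. Its counts lay in cells with epithelial transcripts. Of the 14 kept cells with at least 6 of the 8 epithelial markers above 1 TPM, a limit set after the values were seen, 5 had Rnf43. Among all other kept cells 3 had Rnf43, with 3 counts in all. In the 5 cells Rnf43 had 8, 4, 2, 60 and 77 counts. Znrf3 was found in 13 of the 14 epithelial-marker cells.

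**Figure D4:**
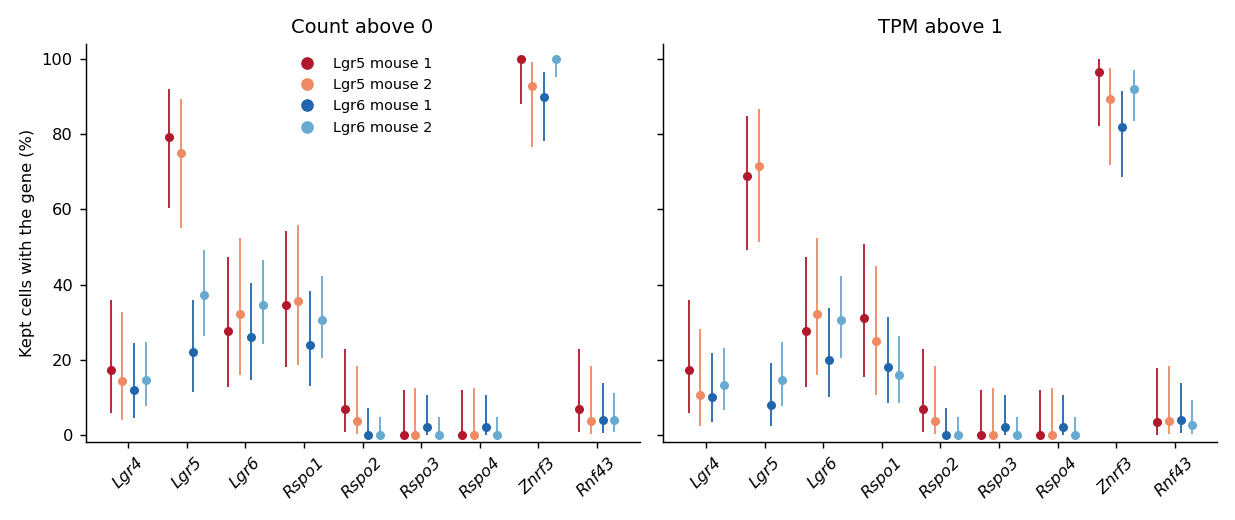
Share of kept cells (percent) in which each gene was found in each mouse, by a count above 0 and by TPM above 1; bars are exact 95% binomial intervals, which cover counting error only. Znrf3 stood at 90% or above by counts in all 4 mice, Lgr5 separated the lines, and Rspo2, Rspo3, Rspo4 and Rnf43 lay below 7%.

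Over all 9 members, the shares of cells with a count did not overlap between the lines for 3, namely Lgr5, Rspo1 and Rspo2, each higher in the Lgr5 line. Across the 19715 genes with a count in a kept cell, 40.8% did not overlap, 28.1% with the Lgr5 line higher and 12.7% with the Lgr6 line higher, so 3 of 9 was no more than the background. In mean TPM 6 members did not overlap, with Lgr5, Rspo1 and Rspo2 higher in the Lgr5 line and Lgr4, Lgr6 and Znrf3 higher in the Lgr6 line. The background for mean TPM was 40.1%, of which 16.5% were higher in the Lgr5 line and 23.6% in the Lgr6 line. On mean log2(TPM + 1) the last 3 overlapped, and 3 members did not overlap beside 42.4% of all genes.

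The counts of each mouse were then summed and the lines compared across all genes with edgeR's quasi-likelihood test. Of 14086 genes tested, 0 passed an adjusted p of 0.05 (0%), 1312 had an unadjusted p under 0.05 (9.31%), and DESeq2 called 567 (4.03%). Of the 9 members 6 were tested and none passed in edgeR. Lgr5 was higher in the Lgr5 line by 3.59 on the log2 scale (SE 0.61), from 753 and 400 CPM (summed counts scaled to the library total) against 28.1 and 61.7. Over all wells with at least 1000 genes, which include wells that the authors did not keep, this difference was 1.04 (SE 0.50; edgeR adjusted p 0.279). The Benjamini-Hochberg adjusted p of Lgr5 was 0.327 in edgeR's quasi-likelihood test and 8.44e-05 in DESeq2. Lgr5 was the one tested member that DESeq2 called. Cells of the Lgr5 line were sorted on a label made through the Lgr5 locus, so this is no independent test of the gene. Rspo1, at 2.13 and 1.36 CPM against 0.589 and 0.538, differed by 1.54 (SE 1.48; edgeR quasi-likelihood, Benjamini-Hochberg adjusted p 0.816). The log2 differences, Lgr5 minus Lgr6 line, were -0.50 (SE 1.39) for Lgr4, -0.01 (SE 0.75) for Lgr6, -0.35 (SE 0.71) for Znrf3 and -0.76 (SE 1.59) for Rnf43. All 4 were smaller than their standard errors, which were back-calculated from the F statistic of the edgeR test. Rspo2, Rspo3 and Rspo4 had too few counts to enter. When the 50 cells with at least 3 epithelial markers were left out, a step added after the data were seen that kept 6, 12, 46 and 68 cells, the differences of Lgr4 and Lgr6 turned to 0.77 and 0.51, that of Rspo1 was 0.0011 (SE 0.76) and that of Znrf3 was -1.45 (SE 1.23). None of these passed, and Lgr5 stood at 4.57 (SE 0.85; edgeR adjusted p 0.170).

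The other members were next compared between cells with and without a count of Lgr5, and with and without Lgr6, in each mouse. Cells with Lgr5 (23, 21, 11 and 28) differed in depth from those without, with a median total of 1329780 against 198597 counts in Lgr6 mouse 1 and of 235432 against 329384 in Lgr5 mouse 1, and the part of this in the result was not tested. In cells with Lgr5, Lgr4 was found in 3, 3, 3 and 2 cells, and its difference with mouse as a block was 0.71 (SE 1.53) on the log2 scale. The same difference was 0.37 (SE 1.24) for Lgr6 and -0.50 (SE 0.77) for Znrf3. Between cells with and without Lgr6 the difference was 1.90 (SE 1.90) for Lgr4, -0.28 (SE 1.21) for Lgr5, -0.13 (SE 0.62) for Rspo1 and -0.15 (SE 0.90) for Znrf3. None passed, and none of these 7 exceeded its standard error. All 8 epithelial markers had lower fitted values in the cells with Lgr5 (median -3.75) and in those with Lgr6 (median -4.45), with 0 called. Summed over the list by Lgr5, they stood at 60282 against 1759, 68.5 against 95558, 3.20 against 2739 and 4828 against 14260 CPM. Lgr5 mouse 1 thus went the other way. By Lgr6 the sums were 270 against 65863, 43.4 against 44071, 9.04 against 1813 and 8416 against 12218 CPM. The part of these markers in the results was not tested. edgeR called 0 of 11761 genes by Lgr5 (0%) and 0 of 11320 by Lgr6 (0%), with 225 (1.91%) and 406 (3.59%) at an unadjusted p under 0.05. DESeq2 called 195 (1.66%) and 409 (3.61%), and no member among them.

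By Acta2, the smooth muscle actin, Lgr4 stood out in size without passing edgeR's test. Lgr4 in cells with an Acta2 count reached 20.9, 1.57, 9.92 and 9.67 CPM in the 4 mice, and in cells without it 0.209, 4.87, 0 and 0 CPM. Lgr4 was thus higher with Acta2 in 3 of 4 mice, with Lgr5 mouse 2 the exception. Single cells weighed on both sides, with 27 counts in 1 cell without Acta2 in Lgr5 mouse 2 and 93 counts in 1 cell with Acta2 in Lgr5 mouse 1. The cells without Acta2 numbered 13, 12, 6 and 7. In the Lgr6 mice Lgr4 was counted in 13.6% and 16.2% of cells with Acta2, and 0 of 6 and 0 of 7 cells without it allow shares of up to 50% and 42.9%. The fitted Lgr4 difference was 5.82 (SE 2.80), with a Benjamini-Hochberg adjusted p of 1 in edgeR's quasi-likelihood test and of 0.0435 in DESeq2. Since 2 of the mice had no Lgr4 count in cells without Acta2, the fitted size depends on the prior count and is no bound. The median over all genes in this comparison was 0.47. Markers of other cell types also had different values by Acta2. Of the 8 epithelial markers 7 had lower values in cells with Acta2 (median -3.64, 0 called), among them Epcam (-4.68, SE 1.24) and Krt8 (-4.30, SE 0.96), and both tested immune markers did (2 of 6 listed, Lyz2 at -3.93, SE 1.12). Summed over the list, epithelial markers stood at 1011 against 98060, 16459 against 44854, 665 against 9857 and 7453 against 43615 CPM. The immune sums were lower in the same mice, at 54.5 against 9347, 3677 against 11872, 231 against 6152 and 2849 against 7904 CPM. Whether the epithelial and immune lists mark separate cells was not tested, nor was their part in the result. edgeR called 0 of 10833 genes (0%), with 520 (4.8%) at an unadjusted p under 0.05, and DESeq2 called 612 (5.65%). The differences of Lgr5 (0.81, SE 1.29), Lgr6 (0.89, SE 1.40) and Znrf3 (-0.25, SE 1.02) were smaller than their standard errors. Lgr5 went in opposite directions in the Lgr6 mice, at 29.96 with and 1.604 CPM without Acta2 in mouse 1 and 28.2 with and 399 CPM without in mouse 2. Single cells weighed on these values too, since 1 cell held 96.7% of the Lgr5 counts in mouse 1 and 58.4% in mouse 2.

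**Figure D5:**
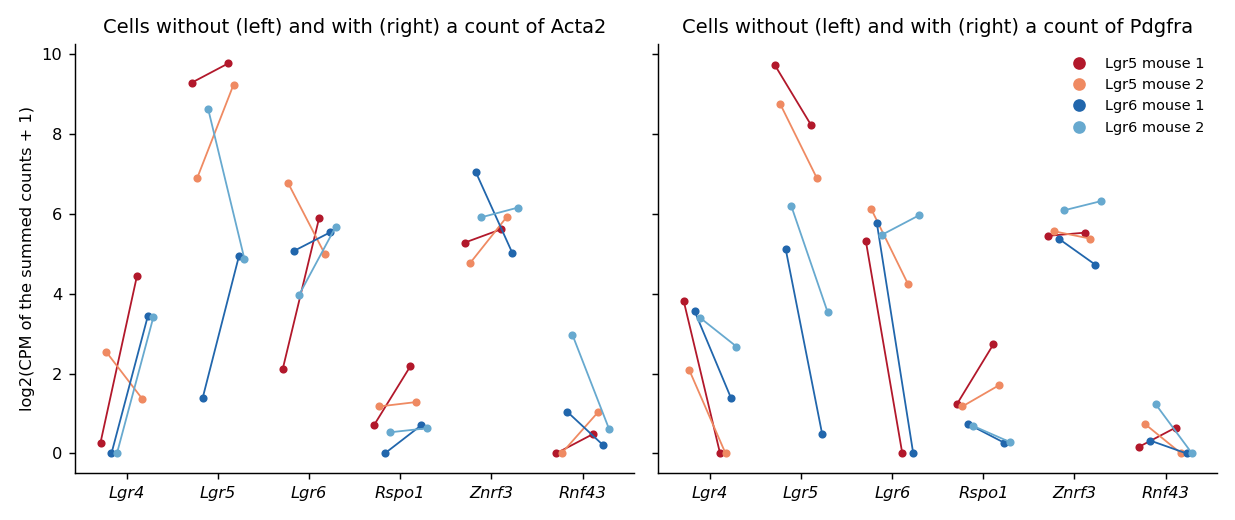
Level of 6 of the genes, as log2(CPM of the summed counts + 1), in cells without (left end of each line) and with (right end) a count of Acta2 or of Pdgfra, 1 line per mouse. Lgr5 was lower at the right end in all 4 mice by Pdgfra, and Lgr4 was higher there in 3 of 4 mice by Acta2.

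Pdgfra, a receptor that marks alveolar fibroblasts, was counted in 6, 3, 7 and 11 cells. Lgr5 was lower in these than in the rest in 4 of 4 mice, at 298.2 against 852.2, 119.2 against 431.5, 0.405 against 33.8 and 10.7 against 73.1 CPM. A single cell held 37.9%, 43.4%, 96.7% and 58.4% of the Lgr5 counts of its mouse. The log2 difference of Lgr5 was -2.77 (SE 0.78), with an unadjusted p of 0.00589 in edgeR's quasi-likelihood test. The Benjamini-Hochberg adjusted p was 0.527 in edgeR and 0.0446 in DESeq2. The shares of cells with Lgr5 were closer, at 66.7% with against 82.6% without Pdgfra, 66.7% against 76%, 14.3% against 23.3% and 27.3% against 39.1%. Lgr6 was lower with Pdgfra in 3 of 4 mice, at 0 against 38.98, 18.1 against 68.6, 0 against 53.9 and 61.4 against 43.7 CPM. Its difference of -4.38 (SE 2.57) had a Benjamini-Hochberg adjusted p of 0.858 in edgeR's quasi-likelihood test and of 0.0497 in DESeq2. Lgr4 was lower in 4 of 4 mice, at 0 against 13.2, 0 against 3.28, 1.62 against 10.9 and 5.40 against 9.56 CPM, and differed by -3.32 (SE 1.94; adjusted p 0.858 in the same edgeR test). Markers of other cell types also had different values by Pdgfra. All 8 airway smooth muscle markers (median -2.73) and 6 of the 8 epithelial ones (median -3.24) had lower values in cells with Pdgfra, with 0 called, among them Des (-3.05, SE 0.86) and Sftpc (-9.84, SE 1.54). Of the 6 immune markers 2 were tested, both lower, and Lyz2 was called. The immune sums were lower in every mouse, at 19.8 against 5554, 4.53 against 7917, 9.10 against 739 and 0.658 against 4045 CPM. So were the epithelial sums, and whether the 2 lists mark separate cells was not tested. The smooth muscle sums were 840 against 6352, 595 against 1359, 1676 against 16881 and 6524 against 14842 CPM, and the epithelial sums 2042 against 58139, 808 against 31477, 46.3 against 1511 and 64.6 against 13104 CPM. Their part in the receptor values was not tested. The fitted sizes of Lgr4 and Lgr6 depend on the prior count, because their counts were 0 in 2 of the Pdgfra groups. Relative to the median of all genes, which was -0.67 here, Lgr5 was lower by about 2 log2 units. The differences of Rspo1 (0.07, SE 1.12) and Znrf3 (-0.03, SE 0.87) were smaller than their standard errors. edgeR called 3 of 11326 genes (0.0265%), none a member, with 727 (6.42%) at an unadjusted p under 0.05, and DESeq2 called 784 (6.92%). In an edgeR interaction test of whether a class difference itself differed between the lines, no member passed in any of the 4 classes, with adjusted p of 1, beside 0% of all genes by Lgr5, Lgr6 and Acta2 and 0.00883% (1 gene) by Pdgfra.

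The wider pathway, a list of 35 genes (12 Wnt receptors, 13 signal transducers, 8 targets and 2 surface proteins that bind R-spondins), gave no call in any of the 5 comparisons. Between lines 32 were tested, 8 with a higher and 24 with a lower value in the Lgr5 line, and their median difference was -0.79 beside -0.05 over all genes. The lowest unadjusted p values belonged to the Wnt receptor Fzd8 (-6.59, SE 2.21), the inhibitor Nkd1 (-1.91, SE 0.71), the transducer Dvl1 (-3.11, SE 1.27) and the scaffold Axin1 (3.28, SE 1.37). All 4 missed the threshold, with Benjamini-Hochberg adjusted p of 0.393, 0.456, 0.520 and 0.536 from edgeR.

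Within lines the same list stayed near the median of all genes. With against without Lgr5, 15 of 29 were higher (median 0.11 beside 0.10), led by the transcription factor Tcf7l2 (1.001, SE 0.54), the receptor Tnfrsf19 (2.11, SE 1.24), the proteoglycan Sdc4 (0.59, SE 0.37) and the co-receptor Lrp5 (-2.53, SE 1.996). For Lgr6 9 of 29 were higher (median -0.38 beside -0.31), and the proteoglycan Gpc3 (-5.30, SE 2.09), the Wnt deacylase Notum (-3.33, SE 1.45), the cyclin Ccnd1 (-1.88, SE 1.24) and the Wnt receptor Fzd6 (-2.08, SE 1.40) had the lowest p. For Acta2 19 of 27 were higher (median 0.44 beside 0.47), led by Apc (-2.04, SE 1.144), Tcf7 (5.81, SE 3.79), Ctnnb1 (-1.18, SE 0.78) and Nkd1 (1.12, SE 0.88). For Pdgfra 6 of 27 were higher (median -0.87 beside -0.67), led by the kinase Gsk3a (-3.87, SE 1.56), Gpc3 (5.35, SE 2.20), Dvl1 (-3.85, SE 2.32) and Dvl2 (-1.84, SE 1.17). Gpc3 had opposite signs by Lgr6 and by Pdgfra, and neither passed.

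Genes with a pattern over cells most like that of a member were sought among 9837 genes, by the median over the 4 mice of the within-mouse Pearson correlation of log2(TPM + 1). Lgr4 was most like Ppp3cb (median r 0.43), Gpatch11 (0.39) and Ngdn (0.37). Lgr5 was most like Pcdh10 (0.47), Oxsm (0.38) and Dot1l (0.36), and Lgr6 was most like Rrn3 (0.42), Fech (0.36) and Csgalnact1 (0.34). Rspo1 came closest to Neurod6 (0.44), Dcaf12l2 (0.42) and C2cd4c (0.42), and Znrf3 to Bhlhe41 (0.42), Mrpl19 (0.39) and Rapgef4 (0.37). The sign was negative in 1 mouse for all 3 genes named for Lgr4, for Dot1l with Lgr5 and for Neurod6 and Dcaf12l2 with Rspo1, and many of these genes were found in few cells, 29 for Ppp3cb and 23 for Pcdh10. Such correlations are a description of sparse values that share libraries, and no member was the closest of any other.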

How the data were processed

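The authors sequenced reads of 38 bases, demultiplexed them with bcl2fastq 2.17.1.14 and quantified them with kallisto 0.43.0 against mm10; the annotation release is not given in the sources used here. They deposited counts per gene for all 384 wells and log2(TPM + 1) for all wells and for the kept cells. The deposited scaled counts were not used, and 0 columns lacked a sample. The authors kept cells with at least 2000 genes, tdTomato, and Ptprc and Pecam1 below 1 TPM, beside limits on housekeeping genes. Libraries carry no molecular identifiers, so intervals (exact Clopper-Pearson, 95%) and the 3 counts that a count of 0 allows cover counting error only. Of the count values above 0 in kept cells, 8.10% are listed at a TPM of 0. The deposited log2 values were turned back to TPM for means.

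For each mouse, or each class of cells in a mouse that held at least 3 cells on either side, the counts were added up and tested with edgeR 4.0.16 (TMM, filterByExpr, quasi-likelihood, Benjamini-Hochberg at 0.05, mouse as a block for classes, the class gene left out) in R 4.3.3. The class fits set cells of the same mice side by side. The edgeR test gives no standard error. Each SE is the absolute log2 difference divided by the square root of the quasi-likelihood F. A difference smaller than its SE therefore restates a low F and is no separate measure of precision. DESeq2 1.42.0, limma 3.58.1, other filters, thinning to 99000 counts (19 cells were too shallow), wells with at least 1000 genes and leaving out each mouse were alternatives. The code was tested on simulated data. The methods name littermate controls for the lineage tracing and injury experiments and do not say how the sequenced mice were related, so p-values measure the spread between these animals. Named genes were all members, the 4 pathway genes with the lowest p per comparison and the 3 most alike per member with a count in at least 20 cells. The members and lists were chosen with earlier results of these data known. Sequences and positions came from GENCODE for GRCm38 (mm10). Python 3.11.15, pandas 2.3.3 and scipy 1.17.1 were used.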

Additional observations from a re-analysis of the deposited data

Results flagged for a closer look

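Rnf43 differed in direction between the lines by Acta2. In the Lgr5 mice it was higher in cells with Acta2 (0.393 against 0 and 1.05 against 0 CPM), and in the Lgr6 mice it was lower (0.148 against 1.07 and 0.538 against 6.84 CPM). The mean differences of the lines lay 4.33 CPM apart. The difference was not tested, and it rests on 8 cells.

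The pool wells held counts of members above the 3 that a count of 0 allows, and entered no comparison. Lgr4 stood at 334.4 TPM in the pool of Lgr5 mouse 2 and at 20.6 TPM in that of Lgr6 mouse 2. Lgr5 stood at 113.5 TPM in the pool of Lgr5 mouse 2, from 55 counts, but had 0 counts in the pool of Lgr5 mouse 1. Rspo3 stood at 176.9 TPM in the pool of Lgr6 mouse 1, from 13 counts. Lgr6 had 104.4 and 1.32 TPM in the pools of Lgr6 mouse 1 and mouse 2, from 11 and 8 counts. Znrf3 had 27.8 TPM in the pool of Lgr5 mouse 1 and 19.9 TPM in that of Lgr6 mouse 2.

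Wells that the authors did not keep held all 9 members in the Lgr5 line (66 and 67 wells of the mice). Their counts per well were 1.398 for Lgr4, 34.6 for Lgr5, 4.92 for Lgr6, 1.53 for Rspo1, 0.323 for Rspo2, 0.180 for Rspo3, 1.35 for Rspo4, 19.1 for Znrf3 and 0.459 for Rnf43. Rspo2 and Rspo3 were found in 12 and 10 such wells, beside 3 and 0 kept cells of that line. In the Lgr6 line (45 and 20 wells) the counts per well were 1.48 for both Lgr4 and Lgr6, 77.3 for Lgr5, 1.29 for Rspo4 and 46.02 for Znrf3, and 1 well held 81.3% of the Lgr5 counts.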

How the results depend on the processing

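As a share of the genes tested, edgeR called 0% between lines. DESeq2 called 4.03% (567 genes), limma on mean TPM with a pseudocount of 1 called 0.263% (36), no filter 2.07% (408), thinning 0.0688% (8), wells with at least 1000 genes 0.721% (99 higher and 28 lower) and leaving out cells with 3 or more epithelial markers, chosen after seeing the data, 0.00809% (1). Leaving out 1 mouse gave 0 to 0.217%, with 34 genes without Lgr6 mouse 1 and 7 without Lgr6 mouse 2. With no filter Rspo4 was called beside Lgr5, on the counts of 1 cell. By class, DESeq2 called 1.66% (Lgr5, 195 genes), 3.61% (Lgr6, 409), 5.65% (Acta2, 612) and 6.92% (Pdgfra, 784). Leaving out a mouse gave 0 to 0.0182% for Lgr6 (2 genes without Lgr6 mouse 2), 0 to 0.00876% for Acta2 (1 without Lgr5 mouse 2) and 0.0166% to 0.0513% for Pdgfra, where 3 genes became 2 without the second mouse of either line and 6 without Lgr6 mouse 1. No filter gave 0.0101% for Acta2 (2 genes) and 5 genes for Pdgfra. For Pdgfra 0.124% (14) were called with no replicate block and 0.361% (32) after thinning, which left out Lgr5 mouse 2, as did the class at TPM above 1. The mouse numbers of the lines only share a number (correlation of deviations 0.039 over 14086 genes), and a replicate block on them between lines called 0 genes.

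Members without overlap between lines numbered 3 by detection, 1 with at least 5 counts (35% of all genes), 5 over wells with at least 1000 genes (76.3%), and 4 to 8 without 1 mouse. These were 4 (72.1%) and 5 (75.7%) without the first and second Lgr5 mouse, and 4 of the 7 detected (60.5%) and 8 (62.8%) without those of the Lgr6 line. By level they numbered 3, or 6 with log2 of the mean TPM plus 1.

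Of 225 member log2 differences under alternatives, 5 became calls (4 with DESeq2, 1 with no filter), 33 turned, and the rest kept direction and call. The causes were not tested. None of those that turned was called under either setting. Between lines, Lgr4 turned to 0.19 after thinning and 0.77 without epithelial-marker cells, and ran from -1.66 to 0.22 without 1 mouse. Lgr6 was 0.11 with DESeq2, 0.063 with library size, 0.51 without epithelial-marker cells and -0.56 to 0.43 without 1 mouse. Znrf3 ran from -0.69 to 0.14 without 1 mouse and was -1.45 without epithelial-marker cells, and Rnf43 was 0.46 over wells with at least 1000 genes. By Lgr5, with the class at TPM above 1 and after thinning, Lgr4 was -2.15 and -0.21 (-0.028 to 1.51 without 1 mouse) and Lgr6 -1.57 and -0.41 (-0.59 to 1.26). By Lgr6, Lgr5 was 0.61 with no replicate block and 0.18 after thinning (-1.12 to 0.70 without 1 mouse), and Znrf3 ran from -0.81 to 0.36. By Acta2, Lgr6 was -0.011 with no replicate block (-0.015 to 1.84 without 1 mouse), Lgr5 ran from -0.25 to 2.02 and Znrf3 from -0.70 to 0.43. By Pdgfra, Rspo1 was -0.015 with library size and -0.041 with no filter (-0.61 to 0.41 without 1 mouse), and Znrf3 was 0.16 with DESeq2, 0.18 with the class at TPM above 1 and 0.070 with no replicate block (-0.19 to 0.053). Of the values that kept direction, Lgr5 between lines ran from 1.04 over wells with at least 1000 genes to 4.57 without epithelial-marker cells, and Rspo1 from 0.0011 without those cells to 2.56 over the wells. After thinning Rspo1 was found in 16 cells beside 55, Rspo2, Rspo3 and Rspo4 in 3, 1 and 1, and Rnf43 in 7 beside 8.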

Other observations

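Among wells of the Lgr5 line that were not kept, 54 had both Pecam1 and Ptprc above 1 TPM. In these Lgr5 was counted in 40, Lgr4 in 23, Rspo1 in 22, Lgr6 in 17, Rspo2 and Rspo3 in 9 each, Rnf43 in 7, Rspo4 in 3 and Znrf3 in 52. Pecam1 marks endothelium and Ptprc leukocytes, and these wells entered no comparison. In the 20 wells of that line with fewer than 2000 genes Znrf3 was counted in 4 and Lgr5 in 1, and in the 55 such wells of the Lgr6 line Znrf3 was counted in 31 and Lgr5 in 5.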
